A study of Gallus gallus with 3 samples.

Results

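Splicing factors and RNA helicases were examined in wild-type chicken DT40 cells and in double-knockout lines that carry H2A.Z1 or H2A.Z1ΔC. The members were the genes whose RefSeq symbol starts with SRSF, SF3, SNRP, HNRNP, PRPF, DDX or DHX, apart from DHX58, and that a RefSeq accession of an array probe names. The array held 43 such genes among 5382 named genes, with 136 of its 43603 probes. Of the 43 genes, 42 had a probe well above background on every array, among 4194 named genes measured in that way. The gene table lists 98 symbols of these families, and 55 of them matched no probe by accession and are not analysed here.

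DT40 cells derive from a chicken B-cell lymphoma and are widely used for gene targeting, and H2A.Z is a histone variant found at many promoters in place of H2A. Arrays were given for 3 lines: a double knockout (DKO) carrying H2A.Z1ΔC, a mutant protein whose ΔC by convention denotes a C-terminal deletion, though the labels do not spell it out (the truncated line), a DKO carrying H2A.Z1 (the full-length line), and the wild type. The labels do not name the genes deleted in the DKO, the promoter that drives either transgene, or whether a line is 1 clone. Each line had 1 single-colour Agilent array, so no difference here has a replicate check, precision is limited by that number, and no p-values are given.

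Pre-mRNA splicing is carried out by the spliceosome, which assembles from small nuclear RNAs and their proteins. Sm proteins (several of the SNRP genes) form a ring on the spliceosomal RNAs, the SF3A subunits help the U2 particle hold the branch site, and PRPF proteins act in the later complexes that become catalytic. SR proteins (SRSF) and hnRNP proteins (HNRNP) bind the transcript itself and promote or repress the use of exons. DDX and DHX genes encode helicases that rearrange RNA and RNA-protein contacts, in splicing and also in ribosome assembly, export and translation. Most of these genes are active in any dividing cell, and the germ-cell helicase DDX4 (vasa) is an exception.

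Levels are log2 processed signals above the array's 75th percentile, averaged over a gene's probes, and differences are between these levels. A difference of 1 log2, that is a doubling or halving of the signal, counted as a call. The 75th percentile of the signal was 1039 for the truncated line, 1558 for the full-length line and 1455 for the wild type, and 68.7% to 72.6% of probes were well above background. The full-length and wild-type arrays shared slide 1 and scan 1 but the truncated array did not (slide 2, scan 2), so wherever the truncated line is compared, slide and group cannot be told apart. The probes of H2AFZ, the gene of H2A.Z1, had levels of -0.21 and -0.85 in the truncated line, 0.81 and -0.31 in the full-length line, and 5.87 and 6.17 in the wild type. Of 12 B-cell genes listed for a check of the cell type 8 were measured, with a median difference of -0.22 between the truncated line and the wild type and a range from -0.61 at BTK to 0.15 at CD79B. CD79B, a subunit of the B-cell receptor, stood at 4.83 in the truncated line, 4.88 in the full-length line and 4.68 in the wild type, and PAX5, a factor of B-cell identity, at -3.06, -2.42 and -2.57. Of 6 T-cell genes 3 were measured, and CD3D was bright on every array, with 4.06 in the truncated line, 4.62 in the full-length line and 4.83 in the wild type, while CD4 was not well above background on all arrays. Other markers were called. CD3E (T cell) differed by 2.09 in the full-length line against the wild type and -2.0038 in the truncated against the full-length line. HBA1 (erythroid) differed from the wild type by -1.43 in the full-length line and -1.23 in the truncated line. COL1A2 (fibroblast) differed by 1.83 in the full-length line against the wild type and -1.72 in the truncated against the full-length line. COL3A1 (fibroblast) differed by -1.17 in the truncated line against the wild type. These genes had levels of -2.17 or lower on every array, and no macrophage marker was called. The part of these marker differences in the other results was not tested. The series matrix, the authors' processed values, equalled the scanner signal times 1 factor for the truncated and wild-type arrays but not for the full-length sample, where the log2 ratio had a robust standard deviation of 0.322. Which array its values for the full-length sample come from is not known, so the shared slide is known only for the scanner values. Those of the matrix are therefore given beside the scanner's as the matrix values. With them CD3E differed by more, 3.72 in the full-length line against the wild type and -3.63 in the truncated against the full-length line. COL1A2 differed by 0.22 and -0.11 in the same comparisons and was not called. For the 8 B-cell genes the median in the full-length line against the wild type was 0.02 with the scanner values. It was -0.39 with the matrix values. In the truncated against the full-length line these medians were -0.11 and 0.05.

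None of the 42 genes was called in any comparison. In the full-length line against the wild type 0 of 42 genes differed by 1 log2 or more, where 3.08% of all named genes did. The corresponding count was 0 of 42 in the truncated against the full-length line, with 4.36% of all named genes called, and 0 of 42 in the truncated line against the wild type, with 6.72% called. These genes gave bright signals, since 40 of the 42 (95.2%) lay above the median of the named genes, and bright genes were called less often in every comparison. Among the 2097 named genes above that median, 0.811% were called in the full-length line against the wild type, 0.572% in the truncated against the full-length line and 2.05% in the truncated line against the wild type. Against these shares a count of 0 in 42 genes is not far from the background.

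The sizes of the differences carry more information than the calls. In the full-length line against the wild type the median size over the 42 genes was 0.07 log2, beside 0.11 over the named genes above the median signal and 0.15 over all named genes. In the truncated against the full-length line the median size was 0.14 for the 42 genes, 0.17 for the brighter genes and 0.22 for all. In the truncated line against the wild type it was 0.175 for the 42 genes, 0.19 for the brighter genes and 0.24 for all. On the scanner values the splicing and helicase genes thus had smaller median differences than the brighter genes, and the gap was narrower where the truncated line was compared. On the matrix values the full-length line against the wild type gave 0.14 for the 42 genes and 0.16 for the brighter genes. The truncated against the full-length line gave 0.10 and 0.13 on these values, so the narrowing was not seen in that comparison. The truncated line against the wild type has the same values in both sets, 0.175 and 0.19, and there the gap was still narrower. The gaps thus depended on the set of values. The number of probes per gene was not matched: 37 of the 42 genes had 2 or more, as did 2729 of the 4194 named genes. With the brightest probe per gene the median sizes in the 3 comparisons were 0.07, 0.10 and 0.14 for the 42 genes. Over all named genes they were 0.16, 0.23 and 0.25, and the brighter genes were not taken apart under that choice. For 40 probes printed repeatedly, the standard deviation between spots of the same difference was 0.06 to 0.07, which covers the error between spots of 1 array and not that between samples.

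**Figure D1:**
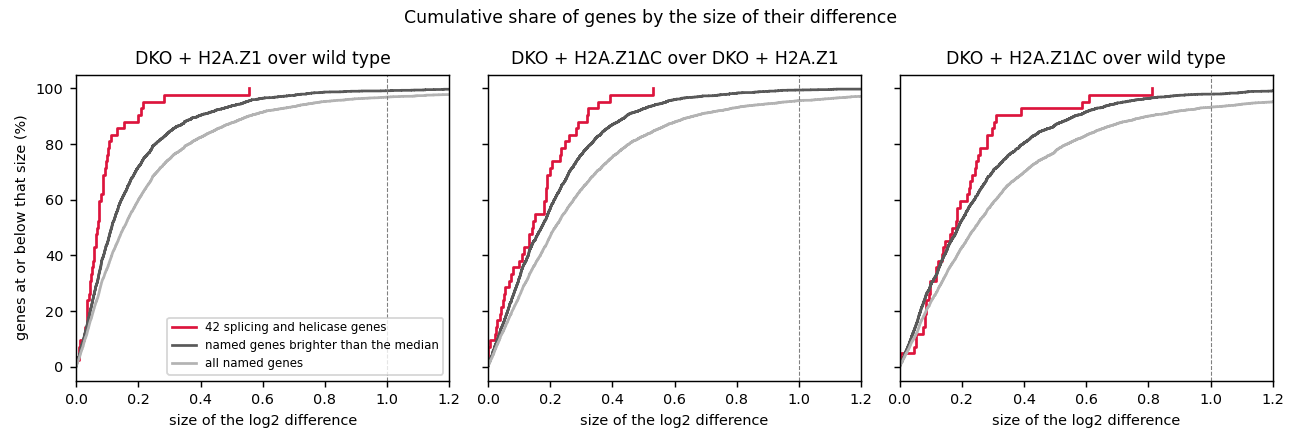
Cumulative percentage of genes (vertical axis) at or below a given size of the log2 difference (horizontal axis), in 1 panel per comparison, for the 42 splicing and helicase genes (red), the 2097 named genes above the median signal (dark grey) and all 4194 named genes (light grey). The red curve climbs fastest in the full-length line against the wild type, and no red step lies beyond the dashed line at 1.

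**Figure D2:**
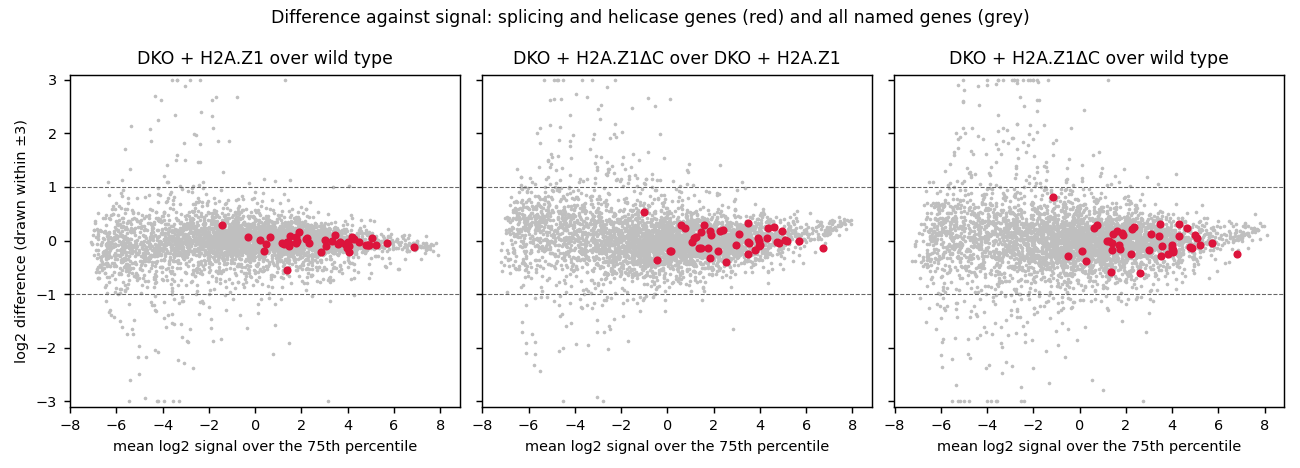
Log2 difference (vertical axis, drawn within 3 of 0) against the mean log2 signal over the 75th percentile (horizontal axis) for all named genes (grey) and the 42 splicing and helicase genes (red). The large grey differences sit mostly at low signal, where few of the red points lie.

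The median signed difference was close to 0 throughout. It was -0.04 in the full-length line against the wild type, where 14 genes were higher and 28 lower, beside a median of -0.02 and 46.6% of genes higher over all named genes. The same comparison on the matrix values gave a median of 0.0034, with 22 genes higher and 20 lower. The truncated line stood -0.0034 from the full-length line, with 21 genes on each side, and -0.06 from the wild type, with 17 genes higher and 25 lower. Over all named genes the medians of these comparisons were 0.01 and -0.0005, with 51.9% and 49.9% of genes higher.

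On the scanner values, 27 of the 42 genes differed by less than 0.25 log2 in all 3 comparisons and 39 by less than 0.4. With the matrix value of the full-length sample these counts were 24 and 36, and HNRNPH1, PRPF3 and DHX30 joined SRSF5, SNRPD1 and DHX38 at 0.4 or more. The shares of all named genes under these limits were not counted, so the counts have no background beside them. The median sizes over all named genes, given above, were also below 0.25 in each comparison. SRSF5, SNRPD1 and DHX38 alone passed the looser limit of 1.5-fold in the truncated line against the wild type, SRSF5 as the higher and the others as the lower. DHX38, at 1.5004-fold, lay on the limit itself. At that limit 17.7% of all named genes (8.75% higher and 8.94% lower) and 9.2% of the brighter ones were counted in the same comparison, so 3 of 42 is not above the background. No gene of the 42 passed 1.5-fold in the full-length line against the wild type (9.01% of all named genes and 3.86% of the brighter ones) or in the truncated against the full-length line (12.7% and 4.39%). With the matrix values 2 genes passed it in the full-length line against the wild type, SRSF5 as the higher and DHX38 as the lower, beside 14.5% of all named genes, and 0 did so in the truncated against the full-length line, beside 8.25%.

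The order of the 3 arrays was also counted. For 15 genes (35.7%) the signal was lowest in the truncated line, intermediate in the full-length line and highest in the wild type, as it was for 23.7% of all named genes. The opposite order held for 8 genes (19.0%), beside 22.1% of all named genes, and the remaining 19 had the full-length line at one end. The matrix values gave other counts: 8 genes (19.0%) had the first order, beside 21.2% of all named genes, and 10 (23.8%) the opposite one, beside 22.8%. The larger number with the first order was therefore seen on the scanner values and not on the matrix values. SNRPD1 and DHX38 had the first order and SRSF5 the second, and on the matrix values SNRPD1 and SRSF5 kept it while DHX38 did not.

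**Figure D3:**
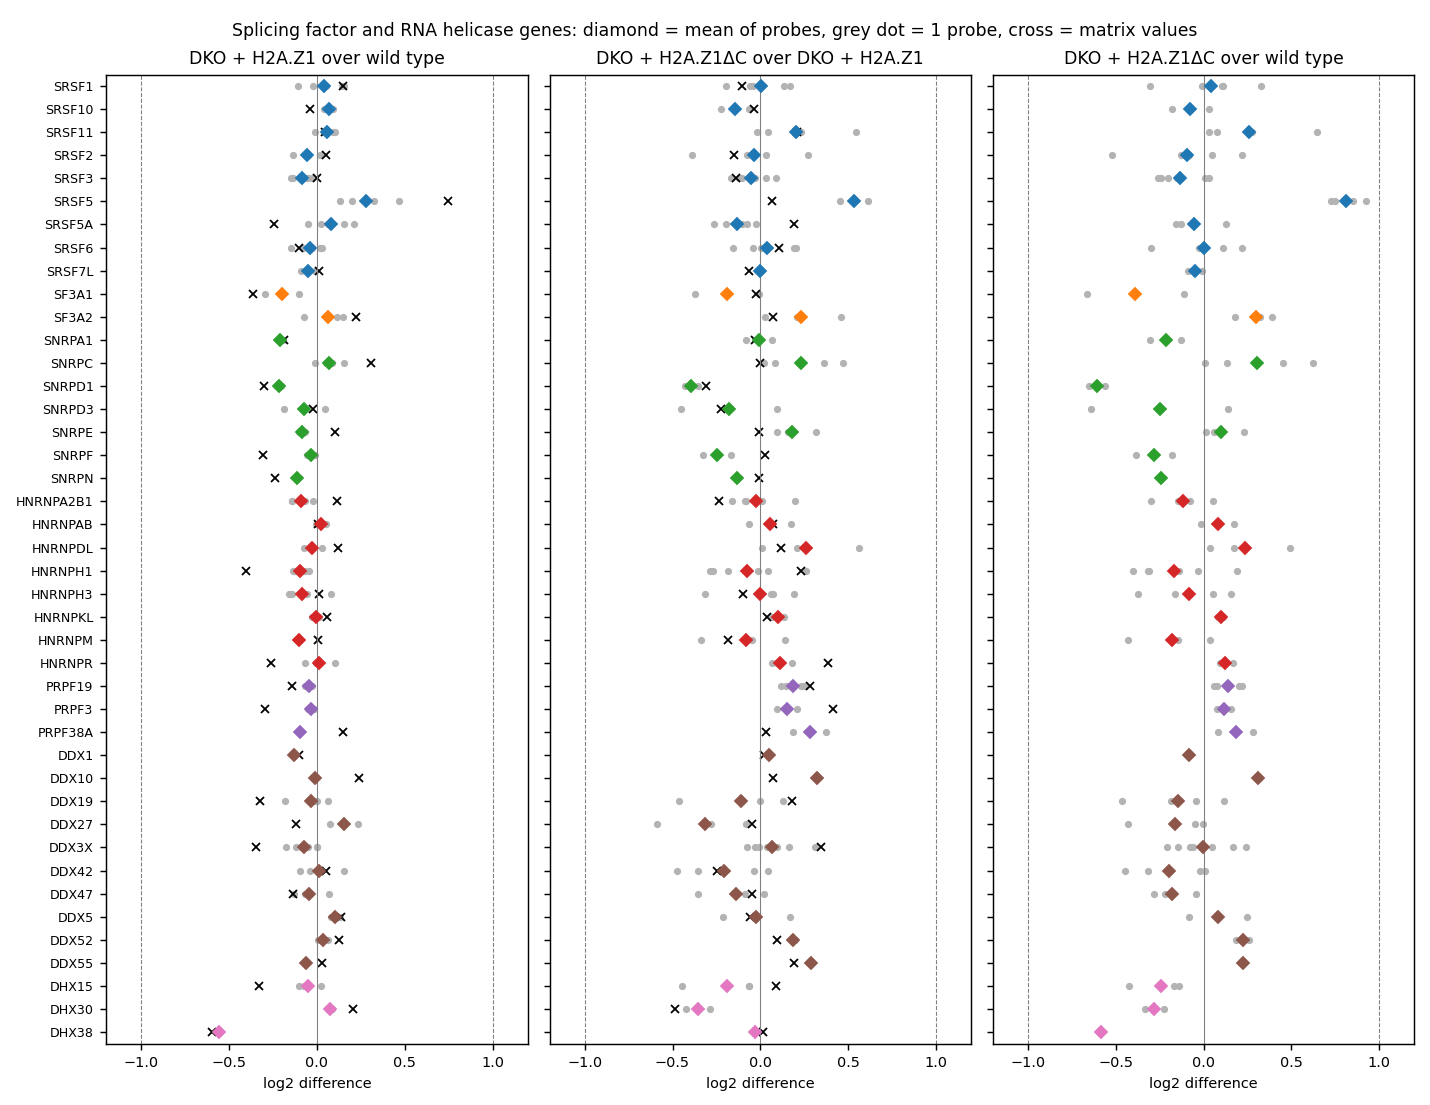
Log2 difference (horizontal axis) of each of the 42 genes (rows, coloured by family), in 1 panel per comparison. Diamonds are means over a gene's probes, grey dots single probes and crosses the matrix values, which for the last panel equal the diamonds and are not drawn. SRSF5 at 0.81, SNRPD1 at -0.61 and DHX38 at -0.59 are the outermost diamonds of the last panel, and none reaches the dashed lines at 1.

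SRSF5 encodes an SR protein that binds exonic enhancer sequences, and it had the largest difference of all the members. Its level was -0.75 in the truncated line, -1.28 in the full-length line and -1.56 in the wild type, so the truncated line was highest and the wild type lowest. All 4 probes kept this order. Probe 1 stood at -0.29, -0.81 and -1.01 on the truncated, full-length and wild-type arrays, and probe 4 at -1.73, -2.19 and -2.66. The difference between the truncated line and the wild type was 0.81 log2, or 1.76-fold, with the single probes between 0.73 and 0.92. Of all named genes 9.73% differed by as much or more in either direction. SRSF5 was not among the 40 members above the median signal of the named genes. In bulk RNA, a change in the share of cells that express a gene and a change in RNA per cell cannot be told apart. The position of the full-length line depended on the set of values. On its scanner array it was 0.28 above the wild type and the truncated line was 0.53 above it. By the matrix values it was 0.75 above the wild type, and the truncated line was only 0.06 above it. Both sets placed the full-length line above the wild type at all 4 probes, but with the matrix values probes 1 and 3 had the truncated line below the full-length line, by log2 differences of -0.175 and -0.11.

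The chicken table also holds a second gene of this kind, SRSF5A, with 5 probes. Its level was 1.39 in the truncated line, 1.53 in the full-length line and 1.45 in the wild type. The truncated line differed from the wild type by -0.05, and single probes ranged from -0.16 to 0.13. The signals of SRSF5 and SRSF5A thus moved by different amounts, and whether their probes share sequence is not known here.

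Of the other SR protein genes, SRSF11 had the largest difference between the truncated line and the wild type, 0.26, and the rest lay within 0.14 of the wild type. SRSF7L, named for its likeness to SRSF7, had levels of 5.69 in the truncated line, 5.69 in the full-length line and 5.74 in the wild type. SRSF1, the SR protein first purified as a splicing factor, had 5.09, 5.09 and 5.05 on the truncated, full-length and wild-type arrays. SRSF3, the smallest SR protein, had 4.79, 4.84 and 4.93 in the same order. SRSF2, which marks nuclear speckles, had 3.52 in the truncated line, 3.56 in the full-length line and 3.62 in the wild type. For the means of these 4 genes no pair of arrays differed by more than 0.14 log2 on the scanner values. With the matrix values SRSF1 differed by 0.15 in the full-length line against the wild type. SRSF2 differed by -0.15 in the truncated against the full-length line. In the truncated line against the wild type single probes ranged from -0.31 to 0.32 for SRSF1 and -0.52 to 0.22 for SRSF2. They ranged from -0.26 to 0.03 for SRSF3 and -0.09 to -0.01 for SRSF7L. SRSF6 differed by -0.0007 between the truncated line and the wild type, and SRSF10, an SR protein known as a repressor when dephosphorylated, by -0.08. SRSF11 had levels of 2.49 in the truncated line, 2.28 in the full-length line and 2.23 in the wild type. Its probes disagreed in size: against the wild type the truncated line was 0.65 higher at probe 3 and 0.28 at probe 2, but 0.03 at probe 1 and 0.08 at probe 4. Over all 9 measured SRSF genes the median difference was 0.04 in the full-length line against the wild type, 0.00 in the truncated against the full-length line and -0.05 in the truncated line against the wild type, where it ranged from -0.14 at SRSF3 to 0.81 at SRSF5.

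Among the Sm and snRNP protein genes, SNRPD1 encodes a core subunit of the Sm ring. On the scanner values it had the lowest difference of all members in 2 of the 3 comparisons. Its level was 2.33 in the truncated line, 2.72 in the full-length line and 2.94 in the wild type. Its probes moved together: probe 1 gave 2.37, 2.72 and 2.93 on the truncated, full-length and wild-type arrays, and probe 2 gave 2.29, 2.72 and 2.95. The truncated line was lower than the wild type by 1.53-fold, a log2 difference of -0.61, and lower than the full-length line by a log2 difference of -0.39. The full-length line differed from the wild type by -0.22, or by -0.30 with the matrix values, which put the truncated line at -0.31 from it. Both sets of values kept the order of the 3 lines. With the matrix values, though, DHX30 had a lower difference than SNRPD1 in the truncated against the full-length line, at -0.49.

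Of the other ring proteins, SNRPF, SNRPD3 and SNRPN were also lower in the truncated line than in the wild type, by smaller differences, and SNRPE was not. SNRPE had levels of 5.05 in the truncated line, 4.87 in the full-length line and 4.95 in the wild type, and all 4 of its probes were slightly higher in the truncated line than in the wild type, by 0.01 to 0.23. SNRPF had 3.38, 3.63 and 3.66 on the truncated, full-length and wild-type arrays, a difference of -0.28 from the wild type in the truncated line, although its matrix value in the full-length line was 3.35. SNRPD3 had 3.68, 3.86 and 3.93, but its probes went opposite ways: against the wild type the truncated line was 0.14 higher at probe 1 and -0.64 at probe 2. SNRPN, an Sm protein close in sequence to SNRPB, had 1 probe and stood at 6.67 in the truncated line, 6.80 in the full-length line and 6.91 in the wild type. Whether this probe also binds SNRPB transcripts was not tested.

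SNRPC encodes a protein of the U1 particle that helps it bind the start of an intron. Its level was 4.45 in the truncated line, 4.22 in the full-length line and 4.15 in the wild type. The difference from the wild type in the truncated line was 0.30 over 4 probes, but these split into pairs, with 0.01 and 0.13 at probes 1 and 2 and 0.45 and 0.62 at probes 3 and 4. The matrix values put the full-length sample at 4.46, level with the truncated line. SNRPA1, a U2 protein, had 3.95 in both the truncated and the full-length line and 4.16 in the wild type, a difference of -0.21 for the full-length line and -0.22 for the truncated line. The 7 SNRP genes had a median of -0.24 in the truncated line against the wild type, with 2 genes higher and 5 lower. Their range there was from -0.61 at SNRPD1 to 0.30 at SNRPC. In the full-length line against the wild type their median was -0.08, with 1 higher and 6 lower. Over all named genes 49.9% and 46.6% were higher in these comparisons.

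**Figure D4:**
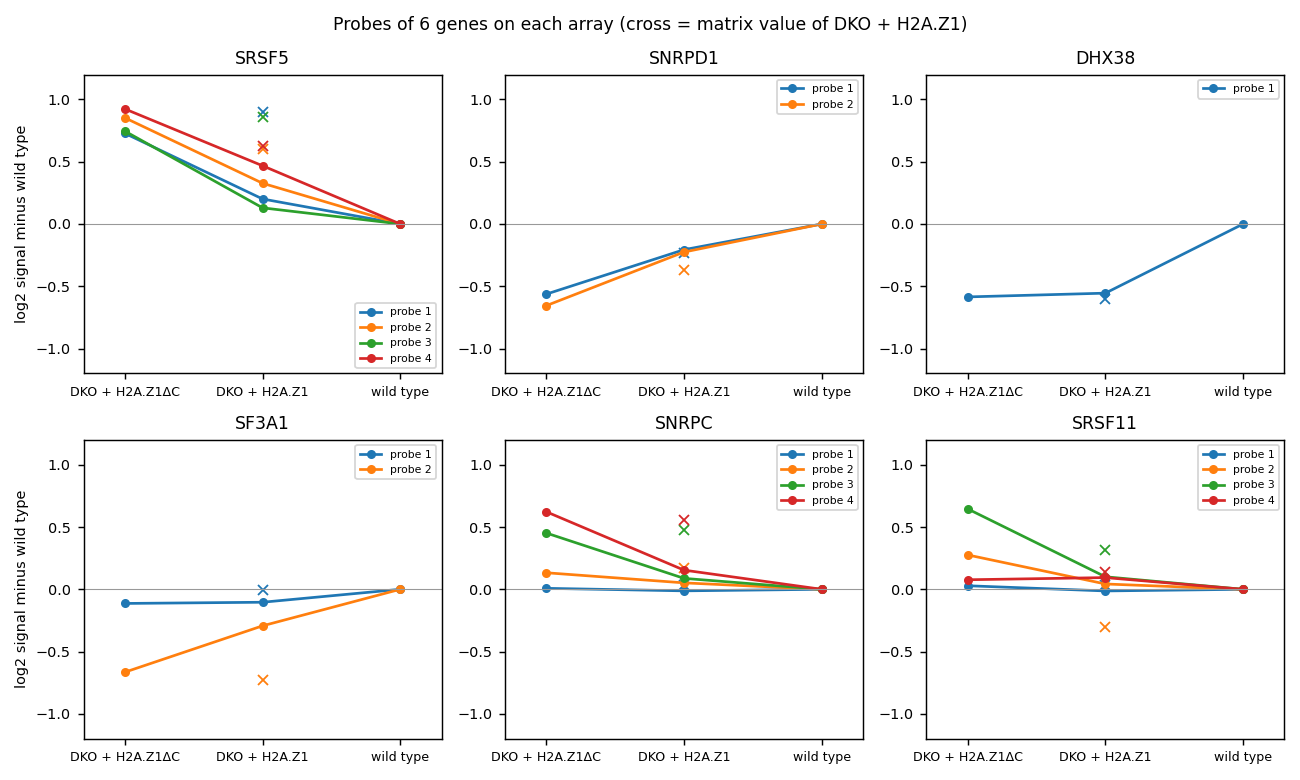
Log2 signal of each probe minus its own wild-type value (vertical axis) on the truncated, full-length and wild-type arrays (horizontal axis, left to right) for SRSF5, SNRPD1, DHX38, SF3A1, SNRPC and SRSF11, with crosses for the matrix value of the full-length sample. The 4 probes of SRSF5 and both of SNRPD1 run together, whereas those of SF3A1, SNRPC and SRSF11 separate in the truncated line.

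Both measured SF3A subunits belong to the U2 particle, and their values lay on opposite sides of 0. SF3A1 had levels of 0.08 in the truncated line, 0.27 in the full-length line and 0.47 in the wild type, a difference of -0.39 between the truncated line and the wild type. Most of it came from probe 2, which gave -0.67, while probe 1 gave -0.11. SF3A2 had 0.90 in the truncated line, 0.66 in the full-length line and 0.60 in the wild type, and its 3 probes were higher in the truncated line than in the wild type by 0.18 to 0.39. The gene difference of SF3A2 was 0.30, and the full-length line differed from the wild type by 0.06 for SF3A2 and by -0.20 for SF3A1.

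The 3 PRPF genes had small differences, higher in the truncated line. PRPF19, the ubiquitin ligase that helps activate the spliceosome, had levels of 1.92 in the truncated line, 1.73 in the full-length line and 1.78 in the wild type. PRPF3, a protein of the U4/U6 particle, had 1.51, 1.36 and 1.39 on the truncated, full-length and wild-type arrays, and PRPF38A, which joins with the tri-snRNP, had 1.70, 1.42 and 1.52. All 8 probes of these genes were higher in the truncated than in the full-length line and than in the wild type, by a median over genes of 0.19 and 0.14. With the matrix values the truncated line was higher than the full-length sample by 0.28 for PRPF19, 0.41 for PRPF3 and 0.03 for PRPF38A.

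The 8 measured hnRNP genes had a median difference of -0.06 in the full-length line against the wild type, 0.03 in the truncated against the full-length line and -0.003 in the truncated line against the wild type. In the full-length line against the wild type 2 were higher and 6 lower, where 46.6% of all named genes were higher. With the matrix values the median there was 0.0089, with 6 higher and 2 lower, and HNRNPH1 differed by -0.40. HNRNPA2B1, which binds both pre-mRNA and exported RNA, had levels of 4.72 in the truncated line, 4.74 in the full-length line and 4.83 in the wild type. HNRNPAB had 4.34, 4.29 and 4.27 on the truncated, full-length and wild-type arrays, and HNRNPKL, a relative of HNRNPK, had 1.92, 1.82 and 1.82. At the upper end HNRNPDL differed from the wild type by 0.23 in the truncated line, with a range over its 3 probes of 0.04 to 0.49. At the lower end HNRNPM differed by -0.18 and HNRNPH1, which binds runs of G, by -0.17. The 7 probes of HNRNPH1 ranged from -0.40 to 0.19, a wider spread than the difference of the gene itself. HNRNPH3 and HNRNPR differed from the wild type by -0.09 and 0.12 in the truncated line.

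The largest helicase difference was in DHX38, the counterpart of the yeast splicing helicase Prp16, which acts before the second catalytic step. Its level was 1.07 in the truncated line, 1.0955 in the full-length line and 1.65 in the wild type, so both DKO lines lay below the wild type and near each other. The log2 difference from the wild type was -0.56 in the full-length line and -0.59 in the truncated line, and the DKO lines differed by -0.03. The matrix value of the full-length sample, 1.05, gave -0.60 against the wild type. DHX38 had 1 probe, so no second probe bears on these values, and the wild-type array is shared by both differences. DHX15, the counterpart of the yeast helicase Prp43 that releases the excised intron, had 2.10 in the truncated line, 2.29 in the full-length line and 2.34 in the wild type, but its matrix value in the full-length line, 2.01, lay below the truncated line. DHX30, known for its part in mitochondrial ribosome assembly, had -0.63 in the truncated line, -0.28 in the full-length line and -0.35 in the wild type, and both its probes were lower in the truncated line than in either other line. The difference of the truncated from the full-length line was -0.35 for DHX30, or -0.49 with the matrix value. All 3 DHX genes were lower in the truncated line than in the wild type, with a median of -0.28 and a range from -0.59 at DHX38 to -0.24 at DHX15.

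The DDX genes measured on all arrays numbered 10, and their differences in the truncated line against the wild type ran from -0.19 to 0.31, with a median of -0.04. DDX5, a coactivator and splicing helicase, had levels of 3.47 in the truncated line, 3.49 in the full-length line and 3.39 in the wild type. DDX3X, which acts in translation initiation, had 1.28, 1.21 and 1.28 on the truncated, full-length and wild-type arrays over 8 probes. DDX1, part of the tRNA ligase complex, had 3.94, 3.90 and 4.03, and DDX19, the helicase of mRNA export, had 3.90, 4.01 and 4.05. With the matrix values DDX3X differed by -0.35 in the full-length line against the wild type and 0.34 in the truncated against the full-length line. DDX19 differed by -0.32 and 0.18 in the same comparisons on these values. DDX42, which joins the U2 particle, differed by -0.19 between the truncated line and the wild type.

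The remaining DDX genes are known for ribosome assembly. DDX10 had levels of 3.63 in the truncated line, 3.31 in the full-length line and 3.32 in the wild type, so the truncated line was 0.31 above the wild type and 0.32 above the full-length line by its single probe. With the matrix values the full-length sample of DDX10 stood at 3.56, and the truncated line was only 0.07 above it. DDX52 was higher in the truncated line than in the wild type by 0.22 over 2 probes. DDX55, with 1 probe, had 0.73 in the truncated line, 0.44 in the full-length line and 0.50 in the wild type, and the truncated line was 0.29 above the full-length line. DDX47 differed by -0.18 between the truncated line and the wild type over 3 probes. One of these was printed 5 times, and its spots gave differences from -0.28 to -0.19, a standard deviation of 0.04. DDX27 had 1.66 in the truncated line, 1.98 in the full-length line and 1.83 in the wild type, a difference of -0.32 between the DKO lines, but with the matrix values the full-length sample stood at 1.71, below the wild type. The 5 ribosome-assembly helicases thus held 3 positive and 2 negative values.

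DDX4 was the 1 member without a measured level. All 5 of its spots were not well above background on each array, with log2 values from -9.94 to -9.42 in the truncated line, -9.60 to -9.15 in the full-length line and -9.53 to -9.03 in the wild type. These lie under the lowest level that was well above background, which was -7.60, -7.29 and -7.20 on the truncated, full-length and wild-type arrays, so no fold is given.

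Many members' probes did not share a sign. Of 37 genes with 2 or more probes, 18 had probes on both sides of 0 in the full-length line against the wild type: DDX19, DDX3X, DDX42, DDX47, DHX15, HNRNPAB, HNRNPDL, HNRNPH3, HNRNPKL, HNRNPR, SF3A2, SNRPC, SNRPD3, SRSF1, SRSF11, SRSF2, SRSF5A and SRSF6. In the truncated against the full-length line there were again 18, namely DDX19, DDX3X, DDX42, DDX47, DDX5, HNRNPA2B1, HNRNPAB, HNRNPH1, HNRNPH3, HNRNPM, SNRPA1, SNRPD3, SRSF1, SRSF11, SRSF2, SRSF3, SRSF6 and SRSF7L. In the truncated line against the wild type there were 16: DDX19, DDX3X, DDX42, DDX5, HNRNPA2B1, HNRNPAB, HNRNPH1, HNRNPH3, HNRNPM, SNRPD3, SRSF1, SRSF10, SRSF2, SRSF3, SRSF5A and SRSF6. No member had probes that differed by more than 1 log2 from each other (0 of 37), and the widest spread was 0.78. The pooled standard deviation between probes of a gene was 0.08 in the full-length line against the wild type, 0.18 in the truncated against the full-length line and 0.19 in the truncated line against the wild type. Over all named genes these values were 0.15, 0.23 and 0.26. In the same order, all probes shared 1 sign in 51.4%, 51.4% and 56.8% of members with 2 or more probes. Over all such named genes the shares were higher, at 74.2%, 63.6% and 64.6%. The median range between a gene's probes was 0.12, 0.36 and 0.29 for members, beside 0.12, 0.25 and 0.27 over all such genes. The number of probes per gene was not matched here.

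The choice between the scanner and matrix values of the full-length sample mattered for single members. Whether both sets come from the same array is not known. Between the matrix and scanner values of the full-length sample the median size of the difference was 0.11 log2 over the 42 genes, ranging from -0.32 at SRSF5A to 0.47 at SRSF5. Over the brighter named genes the median size was 0.13. The sign of the difference was the same with both sets for 26 of 42 genes in the full-length line against the wild type and for 31 of 42 in the truncated against the full-length line. With the matrix values 0 of 42 genes were called in the full-length line against the wild type (5.41% of all named genes) and 0 of 42 in the truncated against the full-length line (2.72%).

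Other splicing and RNA helicase genes were taken from a list of 88 symbols outside the 7 families, of which 37 were measured. In the full-length line against the wild type 0 of 37 were called, with a median of -0.06, where 3.08% of all named genes were called. In the truncated line against the wild type 0 of 37 were called as well, with a median of -0.02, beside 6.72% of all named genes. In the truncated against the full-length line 1 of 37 was called, with a median of 0.03, beside 4.36% of all named genes, so 1 of 37 is not above the background. This was MBNL2, a tissue-specific splicing regulator of the muscleblind family, with levels of -3.35 in the truncated line, -5.12 in the full-length line and -4.24 in the wild type. The log2 difference between the DKO lines was 1.77, but 0.92 with the matrix values. With the matrix values 1 gene was called in the full-length line against the wild type, FUBP1, a single-stranded nucleic acid binding protein, at 1.03, beside 0.72 on the scanner array. On the matrix values 5.41% of all named genes were called in that comparison.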

How the data were processed

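Total RNA was prepared with a blood RNA kit and globin depletion and labelled with a low-input Cy3 kit, per the labels' protocols. The deposited scanner files hold intensity values from Agilent Feature Extraction 11.5.1.1 that were background-subtracted and spatially detrended within each array, per the file headers. A deposited matrix of the series gives a second intensity per spot, whose making is not given in the sources used here. Its column names are the sample names (0 columns left unused).

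Control spots and 7 flagged probes were left out, and no spot was saturated (0 spots). Each deposited signal was divided by the 75th percentile of its array (control spots aside) and put on a log2 scale, spots of 1 probe were averaged, and a gene's value is the mean over probes well above background on all 3 arrays. RefSeq accessions without versions named 11935 of 43603 probes through a table of assembly GRCg7b, which differs from the array's galGal3, so no coordinates are given. Probes of a gene are numbered from the brightest.

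With 1 array per group nothing was tested, there was no replicate to leave out, and no fit with slide as a term could be made. Differences of 1 log2 or more in size were called, and 1.5-fold was tried as an alternative. The members and lists were chosen with earlier results of these data known. Per comparison and direction the 4 members with the largest differences were to be given in full, with each family's median and range, any member with a bound of 2-fold or more, and members whose probes differ in sign or by over 1 log2. Genes outside the families were named where they were on the splicing or marker lists and called, besides H2AFZ and some markers that were not called. Alternatives were normexp (offset 50, limma 3.58.1) on the median signal with quantile or 75th percentile scaling, median scaling, quantile normalization, the matrix values, brighter probes only, no background filter with floored values, the brightest probe per gene, single probes and, added after seeing the data, the median over probes. The calculation was checked on simulated data. Python 3.11.15 was used.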

Additional observations from a re-analysis of the deposited data

How the results depend on the processing

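No member was called (0 in each) in any of the 3 comparisons under any of the 10 alternatives that kept the limit of 1 log2. At 1.5-fold the truncated line against the wild type held 3 members, SRSF5, SNRPD1 and DHX38, beside 17.7% of all named genes. The full-length line against the wild type held 0, beside 9.01%, and the truncated against the full-length line 0, beside 12.7%. In the truncated line against the wild type 0 of the lower genes passed 1.5-fold after quantile normalization, beside 17.5% of all named genes in either direction. With normexp and quantile normalization 1 did, beside 11.8%, and with the brightest probe per gene 1 did, beside 18.1%. Fewer named genes were called with normexp and the 75th percentile (1.79% in the full-length line against the wild type, 2.17% in the truncated against the full-length line and 3.98% in the truncated line against the wild type), with normexp and quantile normalization (1.72%, 1.81% and 4.03%) and among the brighter probes (1.06%, 1.4975% and 3.53%). Over the 10 alternatives the median over members ran from -0.06 to 0.01 in the full-length line against the wild type, from -0.10 to 0.04 in the truncated against the full-length line and from -0.13 to 0.0004 in the truncated line against the wild type, so its sign was not kept in any comparison. The -0.10 came from scaling by the median, which put all named genes at -0.08. Of 1134 single values of members under the alternatives, 43 moved by more than the spread between probes of a gene, 30 of them with the matrix values and 11 with the brightest probe per gene. The matrix values may not be a change of processing alone, since their array for the full-length sample is not known. Over the alternatives the difference between the truncated line and the wild type stayed between 0.72 and 0.81 for SRSF5, -0.67 and -0.56 for SNRPD1 and -0.65 and -0.58 for DHX38. That of SNRPC ran from 0.01 to 0.33 and that of SF3A1 from -0.45 to -0.11. In this comparison the matrix values repeat the scanner's by construction. Choices among probes cannot move a gene with 1 probe, such as DHX38. Narrow ranges and the count of moved values are therefore in part fixed in advance. No paired analysis was possible because each group held 1 array. Differences below the spread between probes could not be resolved. That spread does not cover variation between samples, so larger differences have no replicate check with 1 array a group.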
